A study of Mus musculus with 9 samples.

Results

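The genes described here carry fatty acids into muscle cells and break them down. They are 33 genes grouped by their known function in fatty acid uptake, activation, the carnitine shuttle, mitochondrial beta-oxidation, electron transfer, uncoupling and the nuclear receptors PPARα and PPARδ. They were taken from the deposited table by gene symbol, and all 33 were found among its 56805 genes. Fatty acids reach a muscle fibre after lipoprotein lipase frees them from circulating triglyceride, cross the membrane with the help of carriers such as CD36, and are joined to coenzyme A. Carnitine palmitoyltransferases move the acyl groups into the mitochondrion, where a repeating spiral of 4 reactions shortens them and passes electrons to the respiratory chain. In fasting and exercise, PPAR receptors sense fatty acids and raise transcription of many of these genes, and oxidative fibres hold more of the pathway than glycolytic ones.

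RNA came from the left tibialis anterior (TA), a mainly fast muscle at the front of the shin, in male mice aged 13 months in 3 genotype groups: wild type (WT), Svil-KO and Svil-Mut. Svil encodes supervillin, a membrane-associated protein that binds actin and myosin, and the series asks how altered Svil affects the response to insulin and the performance of muscle. Each genotype had 3 mice and 3 libraries. The labels state neither the lesion in Svil-KO or Svil-Mut, nor the background strain, the feeding state or the time of collection, and no treatment is given for any group. Values are normalized counts, that is read counts divided by a library size factor, and they are listed for replicates 1, 3 and 4 of WT and of Svil-KO and for replicates 1, 2 and 4 of Svil-Mut, in that order. Depth was 36234428 to 48762188 reads per library. Svil itself was at 8686, 9373 and 8407 in WT, 7402, 6746 and 6656 in Svil-KO and 4615, 3939 and 4582 in Svil-Mut. The 3 genotypes did not overlap for Svil. Svil fell in Svil-Mut to 49.6% of WT (log2 fold change -1.01 ± 0.09 SE, adjusted p = 0.000941 by limma with Benjamini-Hochberg adjustment), while Svil-KO was at 78.6% of WT without passing the test (log2 fold change -0.35 ± 0.09 SE, adjusted p = 0.997). The files give whole-gene counts, so a loss limited to some exons could not be seen. Fast fibre markers, which define the labelled muscle, were present in every library, with summed normalized counts of 7870155 to 8397299 in WT, 7935416 to 8868975 in Svil-KO and 9382233 to 9936170 in Svil-Mut for 11 genes.

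Per kilobase of exon, the 33 genes spanned more than 3 orders of magnitude in WT muscle. Fabp3, the fatty acid binding protein of heart and muscle cytosol, stood highest at 26121 ± 7639 normalized counts per kilobase (SD, n = 3). Next came Acadl, the long-chain acyl-CoA dehydrogenase, at 12918 ± 1807, Acaa2, the last thiolase of the spiral, at 8365 ± 1094, and Etfa, a subunit of the electron transfer flavoprotein, at 8083 ± 910.0. Acaa2 and Etfa did not differ beyond their spread, nor did Acadm (5327 ± 670.0) and Acadvl (5074 ± 526), the medium-chain and very-long-chain dehydrogenases. Cd36 was at 4113 ± 702 and Lpl at 2069 ± 132 per kilobase. The length used is all annotated exon bases of a gene over its transcripts, 3590 for Cd36 and 10478 for Lpl. Without that scaling Lpl stood above Cd36 (WT means of 21682 and 14767 normalized counts), so the order of genes depends on the length used. At the low end lay Cpt1a, the liver-type carnitine palmitoyltransferase that admits fatty acids to mitochondria (58.5 ± 11.4), Angptl4, a secreted inhibitor of lipoprotein lipase (22.3 ± 9.80), and the receptor gene Ppard (6.88 ± 1.58). Acot1, a cytosolic acyl-CoA thioesterase, lay between Angptl4 and Ppard, and the receptor gene Ppara was at 115 ± 18.7.

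**Figure D1:**
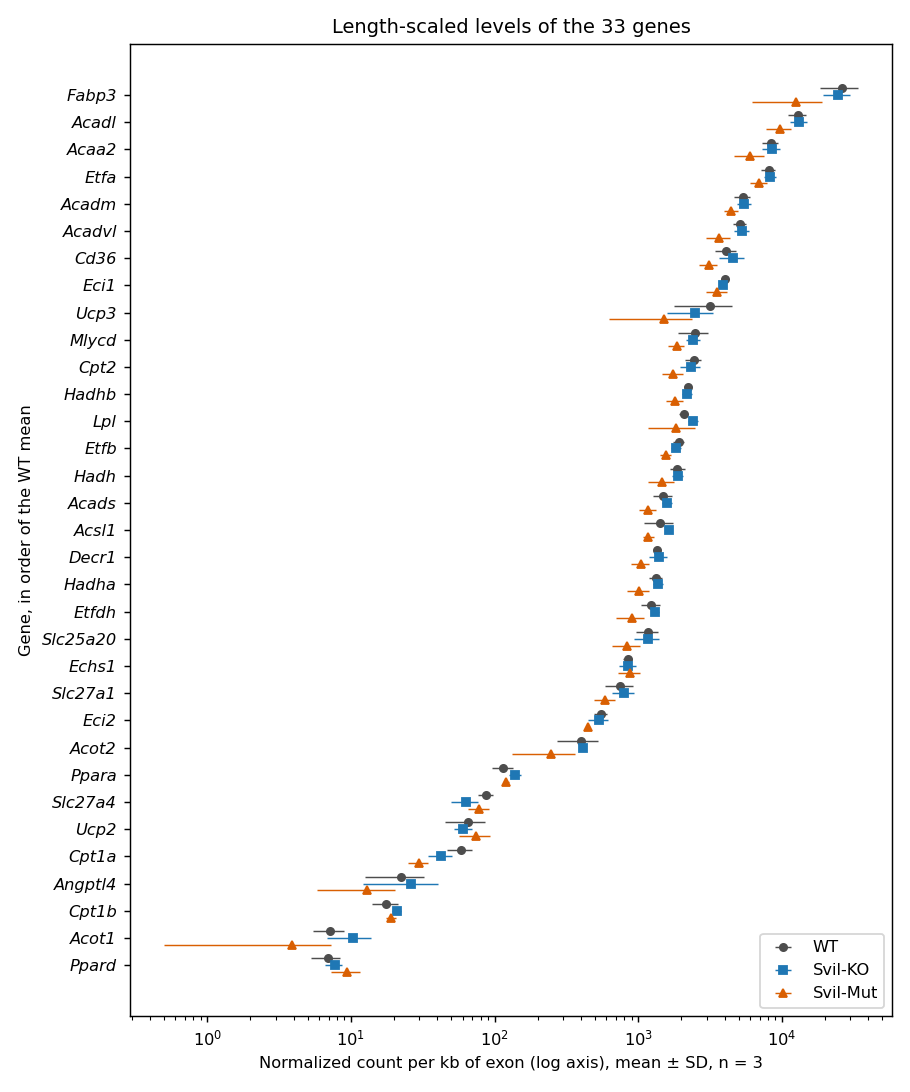
Normalized count per kilobase of exon (log axis) for each of the 33 genes, as mean ± SD of 3 libraries in WT (grey circles), Svil-KO (blue squares) and Svil-Mut (orange triangles), ordered by the WT mean. Fabp3 is highest and Ppard lowest in WT, and for most genes above 100 per kilobase the Svil-Mut mean lies to the left of the other 2.

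The level of Cpt1b, the muscle-type carnitine palmitoyltransferase, has to be read apart from the rest. Cpt1b (GRCm38 chromosome 15, 89416405 to 89425863, minus strand, protein coding) was at only 71.1, 46.5 and 61.1 in WT, 67.1, 68.3 and 75.8 in Svil-KO and 70.3, 60.1 and 63.4 in Svil-Mut. In the GENCODE annotation, 81.4% of its 3372 exon bases, 2744 in all, are also exon bases of Gm44502, a gene on the same strand, and Gm44502 was at 0 in all 9 libraries. How reads in shared exons were counted is not stated in the labels, and the part of this overlap in the low Cpt1b count was not tested. The Cpt1b value may therefore not be its full transcript level, and the 2 CPT1 genes are not compared in level here. Etfb, the other subunit of the flavoprotein, shares 53.0% of its exon bases with Gm45233 on the same strand, and Acadvl shares 42.9% with Dvl2 on the opposite strand, where Dvl2 was at 77.4 to 202 normalized counts against 8488 to 15836 for Acadvl. The libraries do not mark strand, so an overlap on either strand may affect how reads were counted. The Acadvl and Etfb values, also per kilobase, may therefore not be full transcript levels. Acot1 and Acot2, the cytosolic and mitochondrial thioesterases, lie 15616 bases apart on chromosome 12, and 24.5% of the 50-base windows of Acot2 transcripts also occur in Acot1, so reads may be split between them. Of the windows of Fabp3, 37.3% also occur in other genes, 29.2% in the pseudogene Fabp3-ps1, and 19.6% of its exon bases overlap other genes, so its count carries the same uncertainty.

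Promoter windows of RefSeq (build GRCm38.p6, 250 bases before to 50 after a transcription start) were matched by symbol for 28 of the 33 genes. Lpl, Angptl4, Cpt1b, Acaa2 and Decr1 had no matched window and were not searched. PPAR receptors pair with RXR on a direct repeat of the hexamer AGGTCA with 1 base between the copies. That repeat, on either strand and with any base between the copies, was in none of the 31 windows of these genes and in 0.0396% of all 32851 windows, and the looser form with AGGNCA in both places was in none of them and in 0.381% of all. With matches this rare, none would be expected in 31 windows, so their absence does not set these genes apart from others. At least 1 AGGTCA, on either strand, was in windows of 6 of the 28 genes (21.4%), against 15.1% of the 10801 tested genes with a window. These 6 were Acadm, Acadvl, Cd36, Cpt1a, Echs1 and Ucp3, and their values in Svil-Mut ranged from 47.9% of the WT mean for Ucp3 to 104% for Echs1. The upstream stretch around the hexamer is shown for 4 of them whose values are given in every library, 5′ to 3′ on the strand of the gene, with AGGTCA or its reverse complement in capitals.
Cpt1a, chr19:3323167-3323252, plus strand: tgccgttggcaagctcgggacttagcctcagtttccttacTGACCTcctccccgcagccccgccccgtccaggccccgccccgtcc
Acadvl, chr11:70015470-70015555, minus strand: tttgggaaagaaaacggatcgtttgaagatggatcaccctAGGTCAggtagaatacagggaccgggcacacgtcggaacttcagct
Cd36, chr5:17836079-17836146, minus strand: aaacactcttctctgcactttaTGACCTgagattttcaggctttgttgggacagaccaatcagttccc
Ucp3, chr7:100472802-100472887, plus strand: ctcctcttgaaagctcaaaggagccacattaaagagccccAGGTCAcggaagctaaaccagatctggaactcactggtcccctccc
The hexamers began 94, 87, 228 and 149 bases upstream of the start in Cpt1a, Acadvl, Cd36 and Ucp3. Ucp3 held another, 44 bases upstream, and Echs1 held 1 at 83 bases upstream. The stretches around those 2 run into annotated exons and are not shown. For Cd36, the end of the window, downstream of its RefSeq start, was found in no GENCODE transcript of the gene. That window (chr5:17835847-17836146) lies inside the annotated gene (17781690 to 17888801), so its distance holds for the RefSeq start only. The Cpt1a window (chr19:3323051-3323350) also lies inside its annotated gene (3322334 to 3385733), so the same limit holds for the Cpt1a distance. These matches describe letters only.

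Hadha and Hadhb, the α and β subunits of the mitochondrial trifunctional protein, are transcribed away from each other from starts that lie 85 bases apart on chromosome 5. The bases between them are shown because no other 2 of the 33 genes start side by side in this way, on the plus strand, with GGGCGG in capitals.
Hadha-Hadhb, chr5:30155163-30155247: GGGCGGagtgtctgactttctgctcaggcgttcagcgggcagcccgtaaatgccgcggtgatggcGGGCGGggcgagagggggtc
This stretch is 69.4% G or C and holds the hexamer GGGCGG 2 times. At least 1 copy, on either strand, is in 35.7% of all promoter windows. Those windows are longer than this stretch, so the 2 figures are not directly comparable. The log2 fold changes of Hadha and Hadhb were -0.40 and -0.29 in Svil-Mut against WT, and 0.46 and 0.28 in Svil-KO against Svil-Mut.

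Within each genotype, most of the 33 genes stood high or low together in the same library. WT replicate 3 held the lowest WT value for 30 of the 33 genes and WT replicate 4 the highest for 27, where 34.6% and 32.8% of all tested genes did so in those libraries. Among Svil-KO libraries, replicate 3 was lowest for 27 genes (34.2% of all tested genes) and replicate 4 highest for 26 (32.7%). Among Svil-Mut libraries, replicate 1 was highest for 25 genes (31.1%), and replicates 2 and 4 were lowest for 13 and 18. As the median log2 difference from the WT mean, the 33 genes stood at 0.05, -0.21 and 0.16 in WT, 0.06, -0.14 and 0.19 in Svil-KO and -0.12, -0.38 and -0.48 in Svil-Mut. Svil-Mut replicates 2 and 4 lay below every other library, and Svil-Mut replicate 1 lay above WT replicate 3 and Svil-KO replicate 3. The same ordering was seen in Pdk4, a kinase that turns pyruvate dehydrogenase off in fasting and a well-known PPAR target, in WT and in the highest Svil-KO library. Pdk4 was at 39432, 17331 and 52686 in WT, 17239, 19049.5 and 52098 in Svil-KO and 5976, 9859 and 11614 in Svil-Mut.

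**Figure D2:**
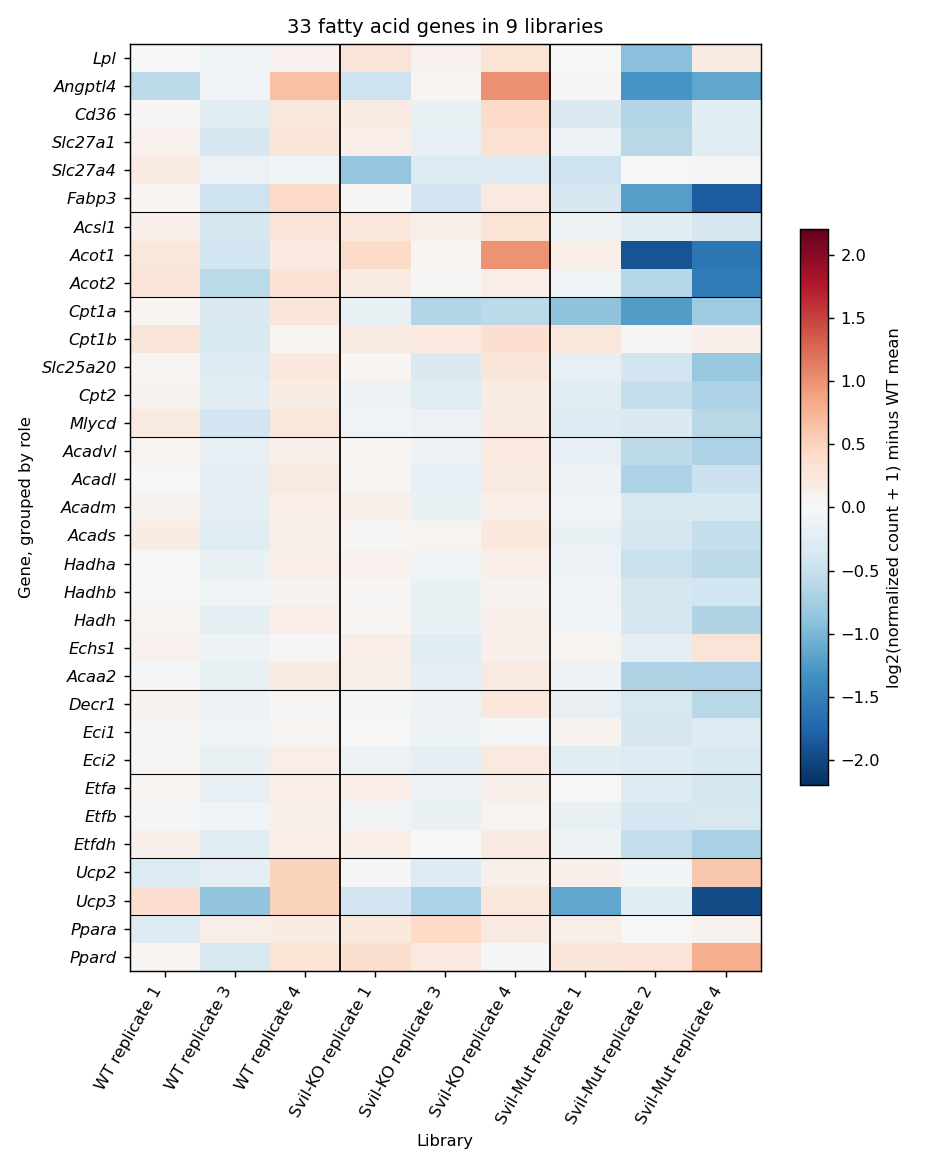
Heat map of the 33 genes (rows, grouped by role with thin lines) in the 9 libraries (columns). Colour gives log2(normalized count + 1) minus the WT mean, blue for lower and red for higher. WT replicate 3, Svil-KO replicate 3 and Svil-Mut replicates 1, 2 and 4 are below the WT mean for most rows. Echs1, Cpt1b, Ucp2, Ppara and Ppard are not lower on average in Svil-Mut.

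In Svil-Mut muscle, transcripts of nearly the whole pathway were measured below WT, by modest amounts, and no single gene passed the test over all genes. Of the 33 genes, 28 had a negative log2 fold change against WT, where 50.7% of all tested genes did, and the median over the 33 was -0.37 against -0.005 over the 15279 genes tested. Fold changes are differences of mean log2(normalized count + 1). None of the 33 reached an adjusted p under 0.05 by limma over all genes tested, a threshold that 0.0393% of genes passed, and DESeq2 called 1 of them (Cpt1a), edgeR 0. At an unadjusted limma p under 0.05, 19 of the 33 were lower and none was higher, where 5.32% and 4.71% of all genes were. The 33 genes moved together between libraries, as given above, so this count does not stand for 19 independent results. This count was 6 without WT replicate 4, 10 without Svil-Mut replicate 4, 11 without WT replicate 1 or Svil-Mut replicate 2, and 9 in a variance model without the mean-variance trend. The 5 genes with positive fold changes were Cpt1b, Echs1, Ucp2, Ppara and Ppard.

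**Figure D3:**
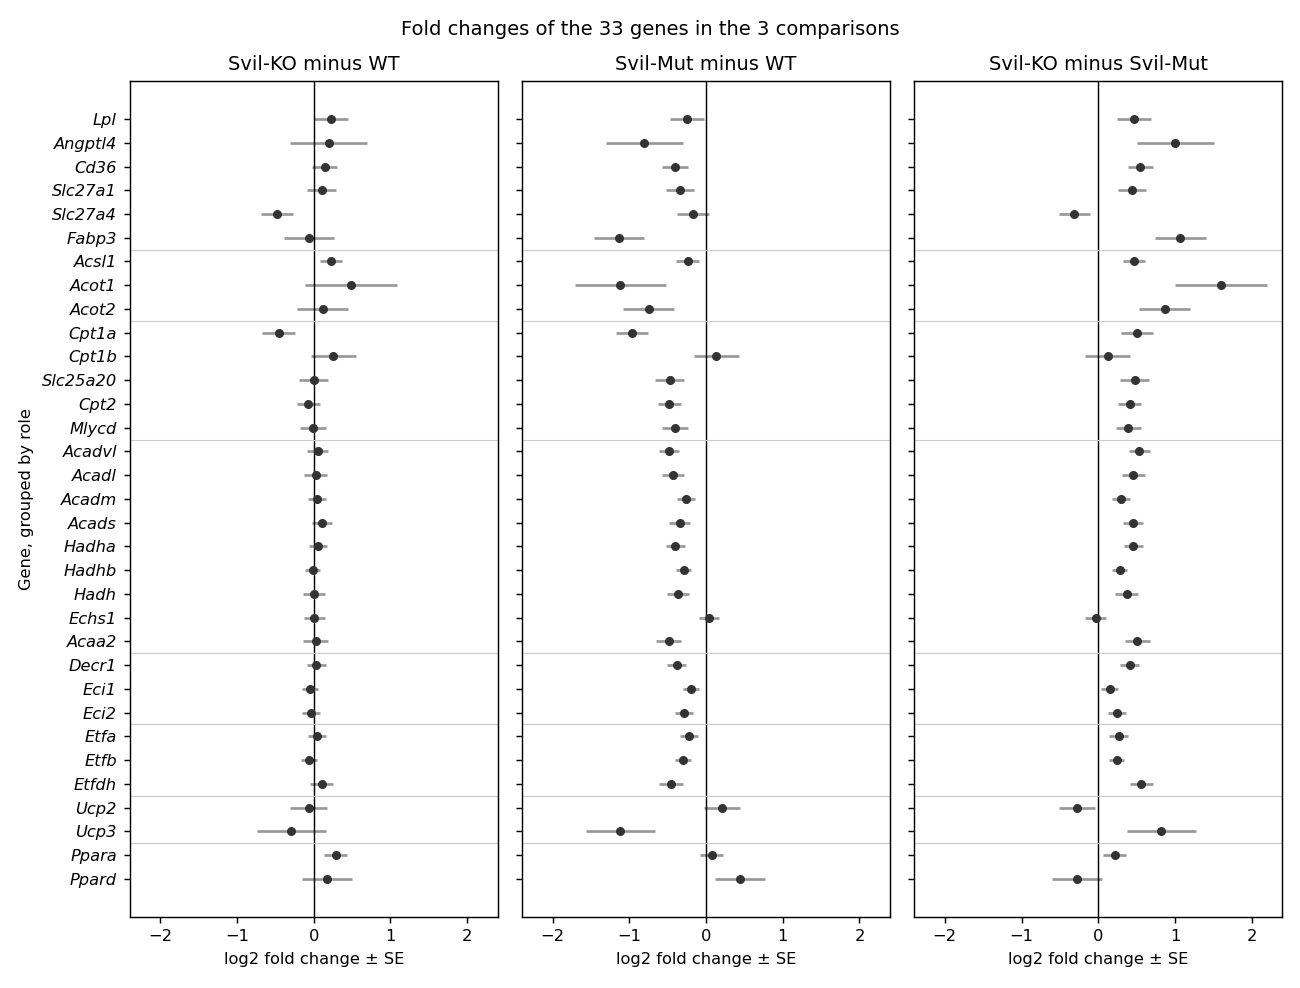
Log2 fold change ± SE (limma, 9 libraries in 1 fit) of each of the 33 genes in the 3 comparisons. In the middle panel 28 points lie left of 0, in the right panel 29 lie right of 0, and in the left panel they scatter around 0 with Slc27a4 and Cpt1a lowest.

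In bulk muscle, fewer cells or fibres of a type and less RNA per cell cannot be told apart. Among the uptake genes, Fabp3 (chromosome 4, 130308595 to 130315463) was at 21401, 15259.8 and 27832 in WT, 21139, 15578 and 24196 in Svil-KO and 16225, 9037 and 5860.5 in Svil-Mut. Svil-Mut replicates 2 and 4 lay below every WT library and replicate 1 within the WT range, for 48.3% of the WT mean (log2 fold change -1.13 ± 0.33 SE, adjusted p = 0.325). For Cd36, the values were 14799, 12230.3 and 17271 in WT, 16500.2, 13155 and 19488 in Svil-KO and 11687, 9319 and 12379 in Svil-Mut. The highest Svil-Mut library lay just above the lowest WT library, and the mean was 75.4% of WT (log2 fold change -0.40 ± 0.16 SE, adjusted p = 0.443). Lpl, lipoprotein lipase, was at 21627, 20324 and 23095 in WT, 26464, 23062 and 26593 in Svil-KO and 21673, 11468 and 24580.2 in Svil-Mut. Only Svil-Mut replicate 2 was low for Lpl, and the log2 fold change was -0.24 with all libraries and 0.09 without that library. Leaving out Svil-Mut replicate 1 gave -0.37, and leaving out replicate 4 of that genotype gave -0.46. Slc27a1 and Slc27a4, fatty acid transport proteins with acyl-CoA synthetase activity, had log2 fold changes of -0.34 and -0.17, and Angptl4 of -0.81 with libraries spread from 29.6 to 75.3 in Svil-Mut and 49.2 to 117 in WT. Slc27a1 was at -0.20 without WT replicate 4 or Svil-Mut replicate 2 and -0.52 without WT replicate 3. Slc27a4 was at -0.02 without Svil-Mut replicate 1, -0.08 without WT replicate 1 and -0.26 without Svil-Mut replicate 2. Angptl4 was at -0.48 without WT replicate 4 and -1.22 without Svil-Mut replicate 1. Of the 6 uptake genes, 2 had an unadjusted p under 0.05, both lower.

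The carnitine shuttle held the gene with the smallest p. Cpt1a (chromosome 19, 3322334 to 3385733, plus strand) was at 456, 355 and 529 in WT, 394, 282 and 297 in Svil-KO and 239, 187 and 257 in Svil-Mut. All 3 Svil-Mut libraries lay below all WT libraries and all Svil-KO libraries, and the mean was 51.0% of WT (log2 fold change -0.96 ± 0.21 SE, adjusted p = 0.226, and DESeq2 adjusted p = 0.00795). Its adjusted p ran from 0.00795 to 0.534 over the alternatives. Cpt2, the inner-membrane transferase that hands acyl groups back to coenzyme A, was at 6059, 4928 and 6426 in WT, 5365, 4789 and 6471 in Svil-KO and 4933, 4009.5 and 3596 in Svil-Mut. The highest Svil-Mut library exceeded WT replicate 3 narrowly and no other WT library (log2 fold change -0.48 ± 0.15 SE, adjusted p = 0.341). Slc25a20, the carnitine-acylcarnitine exchanger, and Mlycd, which degrades the CPT1 inhibitor malonyl-CoA, had means of 72.4% and 74.4% of WT (log2 fold changes -0.48 and -0.40). Slc25a20 was at -0.30 without Svil-Mut replicate 4 and Mlycd at -0.62 without WT replicate 3. Cpt1b, with the limit on its count given above, had a log2 fold change of 0.13. Of the 5 genes, 4 were lower at an unadjusted p under 0.05.

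Of the 9 genes of the beta-oxidation spiral, 8 had negative fold changes and 7 an unadjusted p under 0.05. Acadvl, the very-long-chain dehydrogenase (chromosome 11, 70010183 to 70015411), was at 14169.8, 12028 and 14692 in WT, 14199, 12389.9 and 15836 in Svil-KO and 11916, 9070.1 and 8488 in Svil-Mut. The 3 Svil-Mut libraries lay below every WT and every Svil-KO library, although replicate 1 only narrowly (log2 fold change -0.48 ± 0.14 SE, adjusted p = 0.316). Hadha, which carries the hydratase and dehydrogenase steps for long chains, was at 11551, 10469.7 and 12707 in WT, 12376, 10894 and 12814 in Svil-KO and 10551, 8178 and 7758 in Svil-Mut (log2 fold change -0.40 ± 0.12 SE, adjusted p = 0.33). Svil-Mut replicate 1 exceeded WT replicate 3 for Hadha, and the other 2 lay below all WT libraries. Acaa2 was at 12330.0, 11226 and 14487 in WT, 13567, 10816 and 14424 in Svil-KO and 11632, 7962 and 7904 in Svil-Mut (log2 fold change -0.48 ± 0.16 SE, adjusted p = 0.365), again with only Svil-Mut replicate 1 inside the WT range. The short-chain genes split. Acads, the short-chain dehydrogenase, was at 3727, 2783 and 3599 in WT, 3389, 3495 and 3934 in Svil-KO and 3025, 2586 and 2328 in Svil-Mut (log2 fold change -0.34 ± 0.13 SE, adjusted p = 0.422, with overlap), and Hadh, the short-chain hydroxyacyl-CoA dehydrogenase, had 78.4% of the WT mean. Echs1, the short-chain enoyl-CoA hydratase that acts between those 2 enzymes, was at 7470.0, 6442 and 7080.0 in WT, 7686, 5961 and 7563 in Svil-KO and 7307, 5985 and 8473 in Svil-Mut, with a Svil-Mut mean of 104% of WT (log2 fold change 0.04 ± 0.13 SE, adjusted p = 0.957, and -0.08 without Svil-Mut replicate 4) and its highest value of all 9 libraries in Svil-Mut replicate 4, a library where 18 of the 33 genes had their lowest Svil-Mut value. The other members, Acadl, Acadm and Hadhb, had log2 fold changes of -0.43, -0.26 and -0.29.

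**Figure D4:**
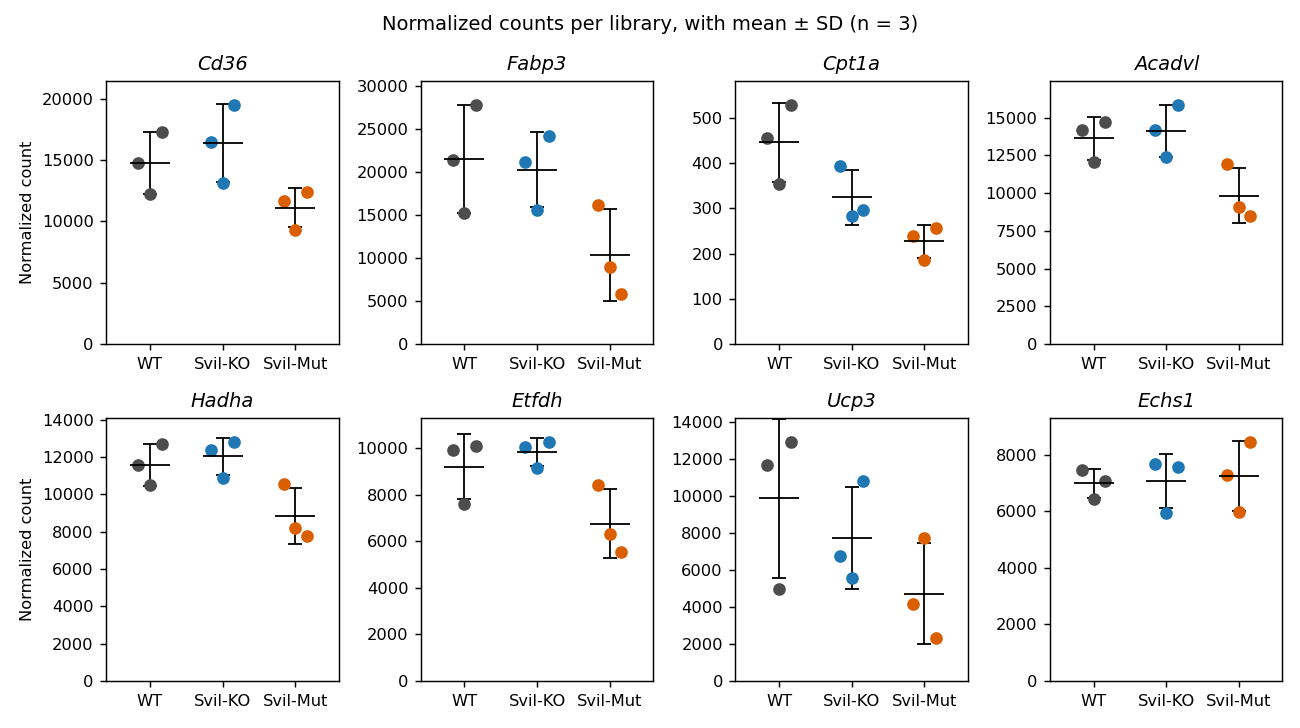
Normalized counts of 8 genes in each library (points, in replicate order from left to right) with mean ± SD (n = 3), for WT (grey), Svil-KO (blue) and Svil-Mut (orange), each axis starting at 0. For Cpt1a and Acadvl no Svil-Mut point reaches a WT point, for Fabp3, Hadha and Etfdh 1 Svil-Mut point does, and Echs1 overlaps throughout.

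The auxiliary enzymes that prepare unsaturated fatty acids for the spiral showed the same direction. Decr1, the 2,4-dienoyl-CoA reductase, was at 5543, 4857 and 5310.3 in WT, 5079.7, 4816 and 6246 in Svil-KO and 4613, 4093 and 3441 in Svil-Mut, with no overlap between Svil-Mut and the other genotypes (log2 fold change -0.38 ± 0.13 SE, adjusted p = 0.365). Eci2 and Eci1, enoyl-CoA isomerases, had 81.9% and 88.2% of the WT mean, without overlap for Eci2 and with overlap for Eci1. Electrons from the dehydrogenases pass through the flavoprotein to Etfdh, its ubiquinone oxidoreductase. Etfdh was at 9907, 7582 and 10085 in WT, 10053, 9147 and 10270.4 in Svil-KO and 8397, 6322 and 5531 in Svil-Mut (log2 fold change -0.46 ± 0.15 SE, adjusted p = 0.365). Here too Svil-Mut replicate 1 lay within the WT range. Etfa and Etfb had 86.0% and 81.4% of the WT mean, and Etfb libraries did not overlap. In all, 5 of the 33 genes (Cpt1a, Acadvl, Decr1, Eci2 and Etfb) had every Svil-Mut library below every WT library and none had them above, where 6.81% and 7.13% of all tested genes did.

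Of the activation, thioesterase and uncoupling genes, Acot1 and Ucp3 varied widely between libraries and Acsl1 less so. Acsl1, the main long-chain acyl-CoA synthetase of muscle, was at 15672, 11120.3 and 17719 in WT, 17279, 15980.1 and 17889 in Svil-KO and 13493, 12282 and 11313 in Svil-Mut, with a Svil-Mut mean of 83.3% of WT and overlapping libraries (log2 fold change -0.24 ± 0.15 SE, adjusted p = 0.626, and -0.10 without WT replicate 4 or -0.43 without WT replicate 3). Acot1 was at 32.8, 20.2 and 31.6 in WT, 37.4, 28.5 and 55.8 in Svil-KO and 30.5, 6.68 and 8.52 in Svil-Mut, and Acot2 ranged from 289 to 797 in Svil-Mut and 557 to 1045 in WT. Their log2 fold changes were -1.11 and -0.75, and Svil-Mut replicate 1 was in both cases within the WT range. Acot1 was at -1.74 without Svil-Mut replicate 1, -0.72 without Svil-Mut replicate 2 and -0.70 with a pseudocount of 10, and Acot2 at -0.35 without Svil-Mut replicate 4. Ucp3, a mitochondrial carrier of skeletal muscle induced by fatty acids, was at 11706, 4974 and 12955 in WT, 6775, 5593 and 10829 in Svil-KO and 4143, 7724 and 2319 in Svil-Mut. Its within-group coefficients of variation were 43.5%, 35.5% and 58.2% in WT, Svil-KO and Svil-Mut, and the groups overlapped (log2 fold change -1.12 ± 0.45 SE, adjusted p = 0.44). The fold change was -0.69 without Svil-Mut replicate 4 and -1.87 with the replicate number as a block. The neighbouring gene Ucp2, 6904 bases away on the same strand, had a positive log2 fold change of 0.21, from 0.03 without Svil-Mut replicate 4 to 0.46 without WT replicate 4.

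In Svil-Mut against WT, the receptor genes did not have the negative fold changes of most of the enzymes. Ppara was at 359, 476 and 489 in WT, 516, 589 and 498 in Svil-KO and 479.5, 439 and 463 in Svil-Mut, and its log2 fold change in Svil-Mut against WT was 0.07, or -0.07 without WT replicate 1. Ppard was at 52.5, 39.5 and 63.2 in WT, 64.9, 59.1 and 49.4 in Svil-KO and 61.1, 62.1 and 88.9 in Svil-Mut (log2 fold change 0.45 in Svil-Mut and 0.17 in Svil-KO, adjusted p = 0.699 and 0.997). Without WT replicate 3 these were 0.27 and -0.0031, and the first was 0.27 without Svil-Mut replicate 4. In Svil-KO against Svil-Mut, Ppara was higher without overlap (log2 fold change 0.21 ± 0.15 SE), the direction of most of the enzymes. Non-overlap in that direction was seen for 7.55% of all tested genes. Ppard was lower there with overlap (-0.27 ± 0.33 SE). Both receptor genes were measured at low level, and no difference between genotypes passed the test.

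Between Svil-KO and WT muscle, the log2 fold changes of the 33 genes scattered around 0, and none passed the test. The median log2 fold change of the 33 genes against WT was 0.03 (0.003 over all tested genes), 21 were positive, where 50.6% of all genes were, and 12 negative, and the 9 spiral genes lay between -0.01 and 0.11. No gene of the 33 passed (adjusted p of at least 0.997 by limma, 0 also by edgeR and DESeq2, background 0%), and 1 of 33 had an unadjusted p under 0.05, where 4.11% of all genes did and 1.75% were lower (0 to 3 of the 33 over the alternatives). That gene was Slc27a4, at 436, 351 and 368 in WT, 212, 311 and 313 in Svil-KO and 278, 384 and 371 in Svil-Mut, with every Svil-KO library below every WT library (log2 fold change -0.48 ± 0.20 SE, adjusted p = 0.997) and a log2 fold change of -0.30 without Svil-KO replicate 1. Without WT replicate 1 or WT replicate 4, no gene of the 33 was lower at that threshold. Non-overlap in that direction was seen for 5.45% of all tested genes. Ppara was the 1 gene with every Svil-KO library above every WT library (log2 fold change 0.29 ± 0.15 SE, adjusted p = 0.997, and 0.14 without WT replicate 1), where 5.2% of all genes were. Cpt1a was at 72.6% of WT (log2 fold change -0.46 ± 0.21 SE, adjusted p = 0.997), with Svil-KO replicate 1 inside the WT range. Acsl1, Lpl, Cd36, Cpt1b and Acot1 had log2 fold changes of 0.23, 0.23, 0.15, 0.26 and 0.49, each with overlapping libraries. Without WT replicate 3, Acsl1 was at 0.03, Cd36 at 0.02, Cpt1b at 0.09 and Acot1 at 0.27, and without Svil-KO replicate 4 Cd36 was at 0.01 and Acot1 at 0.24. Cd36 was at 0.27 without WT replicate 4 and 0.29 without Svil-KO replicate 3, Acsl1 at 0.37 without WT replicate 4 and Cpt1b at 0.39 without WT replicate 1.

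Set against each other, the 2 altered genotypes stood apart in the same direction as WT and Svil-Mut did, and this contrast also tests whether their departures from WT differ. Of the 33 genes, 29 were higher in Svil-KO than in Svil-Mut (51.4% of all tested genes), and the median log2 difference, Svil-KO minus Svil-Mut, was 0.44 against 0.009 over all genes. None passed by limma (0.0458% of all genes did) or edgeR, and DESeq2 called 4, all higher in Svil-KO: Acadvl (DESeq2 adjusted p = 0.0227), Etfdh (0.0364), Hadha (0.0404) and Cd36 (0.0462). At an unadjusted limma p under 0.05, 22 were higher in Svil-KO and 0 lower, where 5.51% and 4.67% of all genes were. Here too the genes moved together between libraries, so these are not 22 independent results. Leaving out Svil-KO replicate 4 gave a count of 10, and leaving out Svil-KO replicate 1 gave 13. Leaving out Svil-Mut replicate 4 gave 12, leaving out Svil-Mut replicate 2 gave 14, and a variance model without the trend gave 12. Every Svil-KO library lay above every Svil-Mut library for 12 of the 33 genes and below for none, where 7.55% and 7.66% of all genes did. The 12 were Cd36, Acsl1, Acot2, Cpt1a, Mlycd, Acadvl, Acads, Hadha, Decr1, Eci2, Etfdh and Ppara. The difference was 0.53 ± 0.14 SE for Acadvl (adjusted p = 0.244), 0.56 for Etfdh and 0.46 for Hadha. It was 0.45 for Acads, 0.55 for Cd36, 0.41 for Decr1, 0.47 for Acsl1 and 1.07 for Fabp3, with limma adjusted p from 0.272 to 0.330 for the 7 genes after Acadvl. The 3 comparisons share libraries, so these values are not independent of those against WT.

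Genes next to these in fatty acid metabolism were read from 3 further lists, and none of their members passed limma over all genes in any comparison. Calls by DESeq2 and edgeR are given for the 33 genes and not for these lists. At an unadjusted limma p under 0.05, 5.32% of all tested genes were lower in Svil-Mut than in WT and 4.71% higher. Of 15 tested peroxisomal genes, 4 were lower and 0 higher at that threshold, with a list median of -0.04. They were Hsd17b4 (log2 fold change -0.49), the peroxisomal multifunctional enzyme, Ech1 (-0.53), a dienoyl-CoA isomerase, Abcd3 (-0.29), a peroxisomal acyl-CoA transporter, and Phyh (-0.25), which starts the oxidation of branched fatty acids. Of 18 other mitochondrial and cytosolic fatty acid genes, 3 were lower and 0 higher (median -0.07): the acyl-CoA binding protein Dbi (-0.37), the coenzyme A carrier Slc25a42 (-0.27) and carnitine acetyltransferase, Crat (-0.23). Both medians lay nearer to the -0.005 of all genes than the -0.37 of the 33 did, and the difference between lists was not tested.

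Of 25 tested further PPAR targets and cofactors, 7 were lower in Svil-Mut at an unadjusted p under 0.05 and 1 higher, the lipoprotein receptor gene Vldlr (0.28), with a median of -0.15. Of all tested genes, 5.32% were lower and 4.71% higher at that threshold. Pdk4 had 25.1% of the WT mean in Svil-Mut (log2 fold change -1.91 ± 0.47 SE, adjusted p = 0.279), without overlap. Mgll and Lipe, lipases of the triglyceride store, had log2 fold changes of -0.59 and -0.79. Plin2, a lipid droplet coat protein and PPAR target, was at 1531, 1450.0 and 1518 in WT, 1307, 1319.7 and 1341 in Svil-KO and 1515, 1421 and 1787 in Svil-Mut and had a log2 fold change of 0.06 in Svil-Mut. Ppargc1a, the coactivator PGC-1α, had -0.10. Of the 25 genes, targets and cofactors together, 17 had negative and 8 positive log2 fold changes in Svil-Mut against WT. Of all tested genes, 50.7% were negative. A shared effect of the receptors on these genes was not tested. In Svil-KO against WT, 1 of these 25 genes (Abhd5, 0.28) had an unadjusted p under 0.05, where 4.11% of all tested genes did. Pdk4 (-0.36) spread from 17239 to 52098 in Svil-KO.

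The citric acid cycle, which takes up the acetyl-CoA made by beta-oxidation, had a smaller median in the same direction. All 18 of its genes had negative log2 fold changes in Svil-Mut against WT, where 50.7% of all tested genes did. For the 18 genes the median was -0.20 and the range -0.34 to -0.06. At an unadjusted p under 0.05, 8 were lower, where 5.32% of all tested genes were. Every Svil-Mut library lay below every WT library for 11 of the 18, against 5 of the 33 fatty acid genes and 6.81% of all tested genes. In Svil-KO against Svil-Mut, all 18 were higher, where 51.4% of all tested genes were. Of these, 13 had an unadjusted p under 0.05 (5.51% of all tested genes) and 12 did not overlap (7.55%). In Svil-KO against WT the median was 0.01. Per library, its median difference from the WT mean was -0.07, -0.17 and -0.37 in Svil-Mut, the order also seen for the 33 fatty acid genes.

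**Figure D5:**
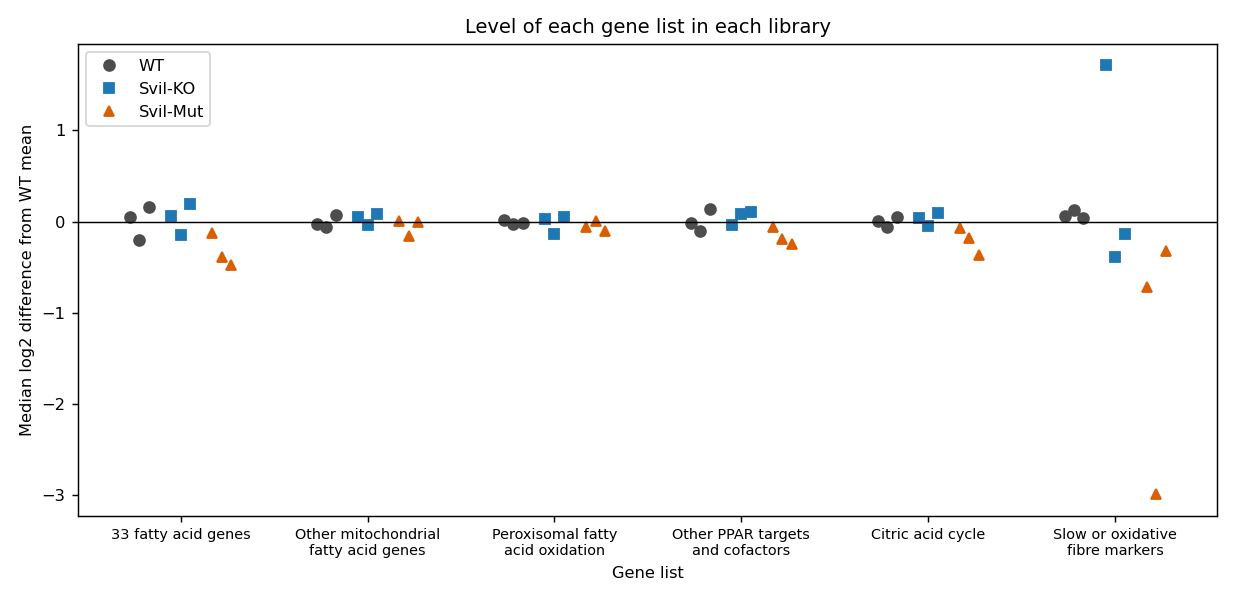
Median log2 difference from the WT mean over the tested genes of 6 lists, 1 point per library, for WT (grey circles), Svil-KO (blue squares) and Svil-Mut (orange triangles). The 33 fatty acid genes stand at -0.12 to -0.48 in Svil-Mut, the peroxisomal list lies between -0.14 and 0.05 in all 9 libraries, and the slow or oxidative fibre markers spread most.

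Markers of fibre type and of other cells moved with these values in part. Of the 11 fast fibre markers, 10 had positive log2 fold changes in Svil-Mut against WT (median 0.16), where 7540 of 15279 tested genes did. Myh1 alone was negative (-0.73). At an unadjusted p under 0.05, 4 fast fibre markers were higher and 0 lower, where 4.71% and 5.32% of all tested genes were. The 11 slow or oxidative fibre markers had summed normalized counts of 114611 to 169746 in WT, 105417 to 165080 in Svil-KO and 42793 to 81387 in Svil-Mut. The Svil-Mut sums did not overlap those of the other genotypes. Most of each sum was Mb, myoglobin, and Myh2, the myosin of fast oxidative fibres, at 48.7% and 35.5% of the WT mean in Svil-Mut. By gene, 11 of 11 had negative log2 fold changes in Svil-Mut against WT (50.7% of all tested genes). At an unadjusted p under 0.05, 5 were lower (5.32% of all tested genes). Every Svil-Mut library lay below every WT library for 4 of the 11, Mb, Myh2, Csrp3 and Myoz2 (6.81% of all tested genes). The other genes of the list, among them the slow myosin and troponin genes, overlapped. By library, the list's median stood at -0.71, -2.99 and -0.33 in Svil-Mut and at 1.71, -0.39 and -0.13 in Svil-KO. Svil-Mut replicate 2 was lowest of all 9 libraries for these markers by median and by sum. For the 33 genes it was also lowest by sum (186663, against 191538 in Svil-Mut replicate 4), while Svil-Mut replicate 4 was lowest by median. The share of reads from the mitochondrial genome was 6.10%, 5.32% and 6.51% in WT, 6.27%, 5.87% and 6.56% in Svil-KO and 5.03%, 4.77% and 3.93% in Svil-Mut. Svil-Mut lay below the other genotypes in this share, and replicate 3 was lowest within WT and within Svil-KO, as for the 33 genes. The 10 most abundant genes took 27.6% to 28.8% of reads in Svil-Mut and 24.4% to 26.7% in the other 6 libraries. Adipocyte markers (9 of 11 tested) summed to 9570 to 11321 in WT, 8386 to 9631 in Svil-KO and 7034 to 10410 in Svil-Mut, and most of each sum was Fabp4, at 6737 to 10822. By gene, 7 of the 9 had negative log2 fold changes in Svil-Mut against WT (median -1.17), where 50.7% of all tested genes did. Of the 9, 4 were lower at an unadjusted p under 0.05, where 5.32% of all tested genes were. The list medians were -1.20, -3.31 and -0.02 in the 3 Svil-Mut libraries. Ucp1 was at 0 in all 9 libraries and Adrb3 in 6. The 10 endothelial markers, of cells that also take up fatty acids through CD36, summed to 9776 to 12107, 9569 to 11725 and 9932 to 12833. Immediate early genes (14) summed to 18845 to 19334 in WT, 19010 to 30478 in Svil-KO and 47018 to 68901 in Svil-Mut, and red blood cell markers (6 of 8 tested) to 4431 to 8147, 2635 to 6208 and 6559 to 49454, highest in Svil-Mut replicate 4. Fibro-adipogenic markers (9) summed to 43382 to 65053, 43526 to 46365 and 33947 to 47842, and macrophage markers (8 of 9 tested) to 1204 to 1769, 1238 to 2973 and 1276 to 3407. By gene, all 9 fibro-adipogenic markers were negative in Svil-Mut against WT (median -0.24, 50.7% of all tested genes), with 0 at an unadjusted p under 0.05. All 14 immediate early genes were positive in that comparison (7540 of 15279 tested genes). Of these, 12 had an unadjusted p under 0.05 (4.71% of all tested genes) and 3 passed limma over all genes (0.0393%). The part of fibre type, cell content, mitochondrial RNA and the immediate early genes in the values of the 33 genes was not tested.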

How the data were processed

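RNA from the left tibialis anterior of 9 mice, 3 per genotype, was made into oligo(dT)-primed full-length cDNA libraries that do not mark strand, per the labels' protocols. HISAT2, featureCounts, DESeq2 and the mm10 build are named in the submitters' processing notes. Their versions and settings, and the annotation used, are not stated in the labels. Values deposited by the authors are a signal for each gene, namely read counts over a library's size factor, and 100% of values came out as whole reads within 0.001 once multiplied back. All 9 samples carry the same batch label, 1, and the labels say no more on how the mice were handled, so p-values measure the spread between these libraries.

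Values were tested as log2(normalized count + 1) with limma 3.58.1 (trended variance, all 9 libraries in 1 fit, genotype as the only term) in R 4.3.3, for genes at 10 or more in at least 3 libraries (15279 genes), with Benjamini-Hochberg adjustment over all of them and a threshold of 0.05. The fit was tested on simulated data in which genes varied independently and changes were larger than most seen here. That test does not cover small changes in genes that move together. edgeR 4.0.16 and DESeq2 1.42.0 were run on the recovered reads as alternatives, and calls of each are given beside the limma counts. Other alternatives changed the pseudocount, filter, scaling, variance model, samples fitted and replicate block, or left out 1 library. The 33 genes and the other lists were chosen with earlier results of these data known. All 33 are named. Values per library are given for Svil, the 8 genes with the smallest p in each comparison and Cpt1a, Cpt1b, Cd36, Lpl, Ppara and Ppard, and for some further genes, chosen after their values were seen, that set the range or the exceptions (Echs1, Ucp3, Plin2). From the other lists, up to 4 genes with the smallest p and Pdk4, Plin2 and Ppargc1a are described (1 gene that the rule names is not reported here), and Vldlr and Abhd5 as single exceptions chosen after their values were seen. Gene models are GENCODE on GRCm38, and promoters are from RefSeq.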

Additional observations from a re-analysis of the deposited data

How the results depend on the processing

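With 3 mice per genotype, no difference in the 33 genes passed limma over all genes, and DESeq2 set the calls most. Under DESeq2, 4 genes in all were called in Svil-KO against WT (0 by limma), 176 in Svil-Mut against WT (6 by limma) and 216 in Svil-KO against Svil-Mut (7 by limma), and of the 33 genes 1 was called in Svil-Mut against WT and 4 in Svil-KO against Svil-Mut. Genes called in Svil-Mut against WT came to 19 with a pseudocount of 10, 16 with a mean of at least 50, 16 with robust variance and 14 with only the 2 genotypes fitted. With 1 library left out they came to 4 to 18, and to 4 to 13 in Svil-KO against Svil-Mut. The cause was not tested. The median of the 33 ran from -0.47 to -0.29 in Svil-Mut against WT, from 0.31 to 0.53 in Svil-KO against Svil-Mut and from -0.06 to 0.13 in Svil-KO against WT.

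Some small fold changes turned sign when 1 library was left out. Ppard in Svil-KO against WT ran from -0.0031 (no WT replicate 3) to 0.33. In Svil-Mut against WT, Cpt1b ran from -0.032 (no WT replicate 3) to 0.27, Ppara from -0.068 (no WT replicate 1) to 0.16, and Lpl from -0.46 to 0.092 (no Svil-Mut replicate 2), with 0.036 under the replicate block. Echs1 ran from -0.079 (no Svil-Mut replicate 4, and -0.02 with no WT replicate 3) to 0.17 in that comparison. For Svil-KO against Svil-Mut, Echs1 ran from -0.16 to 0.087 (no Svil-Mut replicate 4, and 0.09 with no Svil-KO replicate 3).

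Over all genes tested, libraries that share a replicate number did not deviate together (correlations of -0.056 to 0.044 over 7 pairs, and 4 of 9 libraries correlated best with their own number), so the numbers were not taken as a pairing. The 33 genes alone were lowest in replicate 3 and highest in replicate 4 in both WT and Svil-KO, by their median. With the replicate block, 0 genes were called in Svil-KO against WT, 7 in Svil-Mut against WT and 6 between Svil-KO and Svil-Mut. None of the 33 was among them, and 2, 23 and 22 of the 33 had an unadjusted p under 0.05.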
